A study of Mus musculus with 12 samples.

Results

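Collagens are the chains that build the extracellular matrix, and the 44 collagen genes of a mouse tumour count table are described here across 4 treatment groups. Members are every gene whose mouse symbol has the form Col, a number, a and a number, a rule that uses no measured value, and they make up 44 of the 55487 identifiers in the table. Tumours were grown from Sq-1979, a mouse head and neck squamous cell carcinoma line, which was placed with Matrigel beneath the skin of C3H/HeN males aged 6 weeks. From day 20 the mice received regorafenib at 5 mg/kg/day, regorafenib with an anti-PD1 antibody (the combination), the antibody alone or vehicle, with 3 libraries of polyadenylated RNA in each group. Regorafenib is an oral inhibitor of several kinases, among them the receptors of vascular endothelial growth factor, and anti-PD1 blocks an inhibitory receptor on T cells. The tumour line and its host are shared by all 4 groups, so no group is free of tumour, and the labels do not say that the 3 libraries of a group came from 3 separate mice. If they did not, the p-values below measure only the spread between these libraries, which may be technical.

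Each collagen is made of chains that wind into a helix, and the classes differ in what that helix builds. Fibrillar collagens such as types I, III and V form the tensile fibres of connective tissue and are made chiefly by fibroblasts. FACIT collagens lie on the surface of such fibres, network collagens of type VIII form lattices below endothelium, and type IV forms the sheet of the basement membrane. Type VI makes beaded filaments between fibres and basement membrane, and type VII anchors epithelium to the dermis. Multiplexins lie at basement membranes, and transmembrane collagens such as type XVII stay on the cell surface.

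The libraries held between 22591835 counts (regorafenib 2) and 28209036 counts (anti-PD1 3). The table keeps the squamous identity of the line, since the summed level of 10 keratinocyte markers lay between 11645 and 17478 CPM in all 12 libraries. Levels are CPM, counts scaled to a common library size by the trimmed mean of M values, and comparisons between genes use CPM per kilobase of exonic sequence. Tests are edgeR's quasi-likelihood test over 16974 genes, with Benjamini-Hochberg adjustment over all of them and a call at an adjusted p under 0.05. A filter on low counts left 39 of the 44 collagens in the test, namely 11 of 11 fibrillar, 2 of 3 network, 6 of 9 FACIT, 5 of 6 basement membrane, 6 of 6 beaded filament, 4 of 4 transmembrane and 2 of 2 multiplexin genes, with Col7a1, Col26a1 and Col28a1. The 5 that did not enter were Col4a3, Col9a1, Col10a1, Col19a1 and Col22a1. They had 9, 15, 25, 2 and 13 counts in all 12 libraries together, so a difference in them was not detectable at this depth. Col10a1, a network collagen of growth plate cartilage, had the highest single level of these, 0.332 CPM in vehicle 2.

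Collagen genes took up a variable share of the reads. They held 1.63%, 3.89% and 0.941% of the counts in the regorafenib libraries and 1.11%, 0.893% and 1.87% in the combination libraries. They held 1.04%, 3.66% and 4.10% in the anti-PD1 libraries and 4.03%, 3.08% and 3.92% in the vehicle libraries. Regorafenib 2 thus stood at the vehicle level and anti-PD1 1 stood among the combination libraries, and the average effect of regorafenib is given below with and without them. Fibrillar genes made up 55.7% to 78.3% of the collagen counts with regorafenib, 51.7% to 69.4% with the combination, 60.3% to 80.8% with anti-PD1 and 77.9% to 81.4% with vehicle. The transmembrane class, which is nearly all Col17a1, held 3.99% to 20.7% of the collagen counts with regorafenib, 8.31% to 20.7% with the combination, 3.72% to 16.0% with anti-PD1 and 3.91% to 6.04% with vehicle.

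**Figure D1:**
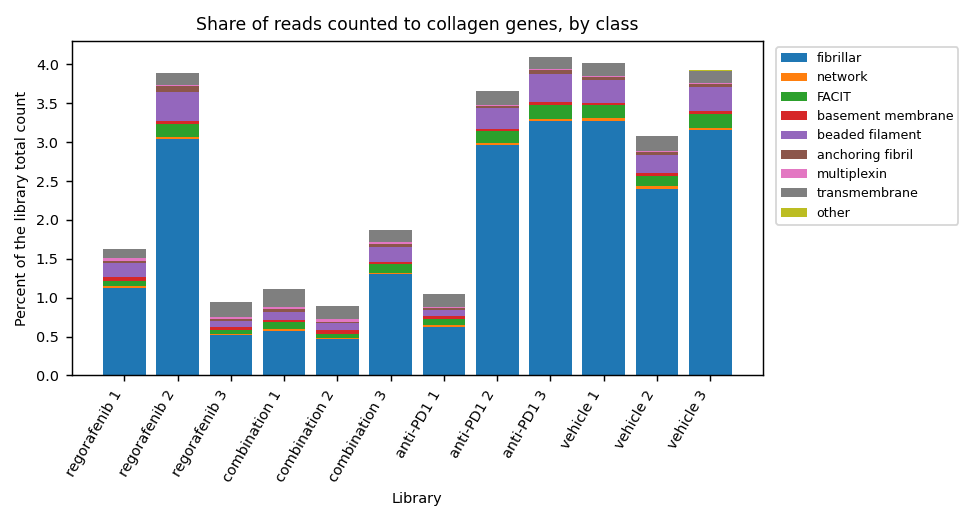
Percent of each library's total count that fell on collagen genes, stacked by class, for the 3 libraries of each group. Fibrillar collagens make up the tallest block in every bar, and regorafenib 2 (3.89%) and anti-PD1 1 (1.04%) stand apart from the other libraries of their groups.

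In vehicle tumours the fibrillar chains of types I and III led the family per kilobase. Col1a1, the alpha 1 chain of type I collagen, averaged 1752 CPM per kilobase, Col3a1 739 and Col1a2 694. The fourth gene was the transmembrane Col17a1, a hemidesmosome protein of basal keratinocytes, at 277 CPM per kilobase. Next came the beaded filament chains Col6a1 at 255 and Col6a2 at 120.0, then the type V chains Col5a2 at 113 and Col5a1 at 111, which help to nucleate type I fibres. The FACIT Col12a1 at 75.1, the beaded filament Col6a3 at 59.8, the FACIT Col16a1 at 55.7 and the network Col8a1 at 42.2 CPM per kilobase completed the first 12. Neighbours such as Col3a1 and Col1a2, or Col5a2 and Col5a1, did not differ beyond their spread in vehicle libraries, where the SD of Col3a1 was 1688 CPM around 7254 CPM and that of Col5a2 was 126 CPM around 1086 CPM. Type IV stood lower, with Col4a1 at 27.4 and Col4a2 at 19.9 CPM per kilobase.

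The question put to these genes was whether regorafenib, given alone or with anti-PD1, changed them. On average over both backgrounds 7 of the 39 tested collagens passed the test, 17.9% against 9.49% of all tested genes. Col8a2, Col13a1, Col14a1 and Col8a1 fell (4 of 39, against 3.32% of all tested genes) and Col11a2, Col20a1 and Col18a1 rose (3 of 39, against 6.16%). The share that rose is too near that of all tested genes to be a result about collagens. The average effect is the mean of regorafenib over vehicle and of combination over anti-PD1 on the log2 scale. By class, 2 of 2 network genes fell, 1 of 6 FACIT genes fell and 1 rose, 1 of 4 transmembrane genes fell, 1 of 2 multiplexins rose and 1 of 11 fibrillar genes rose. None of 5 basement membrane or 6 beaded filament genes passed, and none of those 11 had an unadjusted p under 0.05. The median log2 fold change was -1.80 for network, -1.02 for fibrillar, -0.82 for FACIT, -0.43 for transmembrane, -0.04 for beaded filament, 0.27 for basement membrane and 0.53 for multiplexin genes, against -0.37 for all tested collagens and 0.00 for all tested genes.

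**Figure D2:**
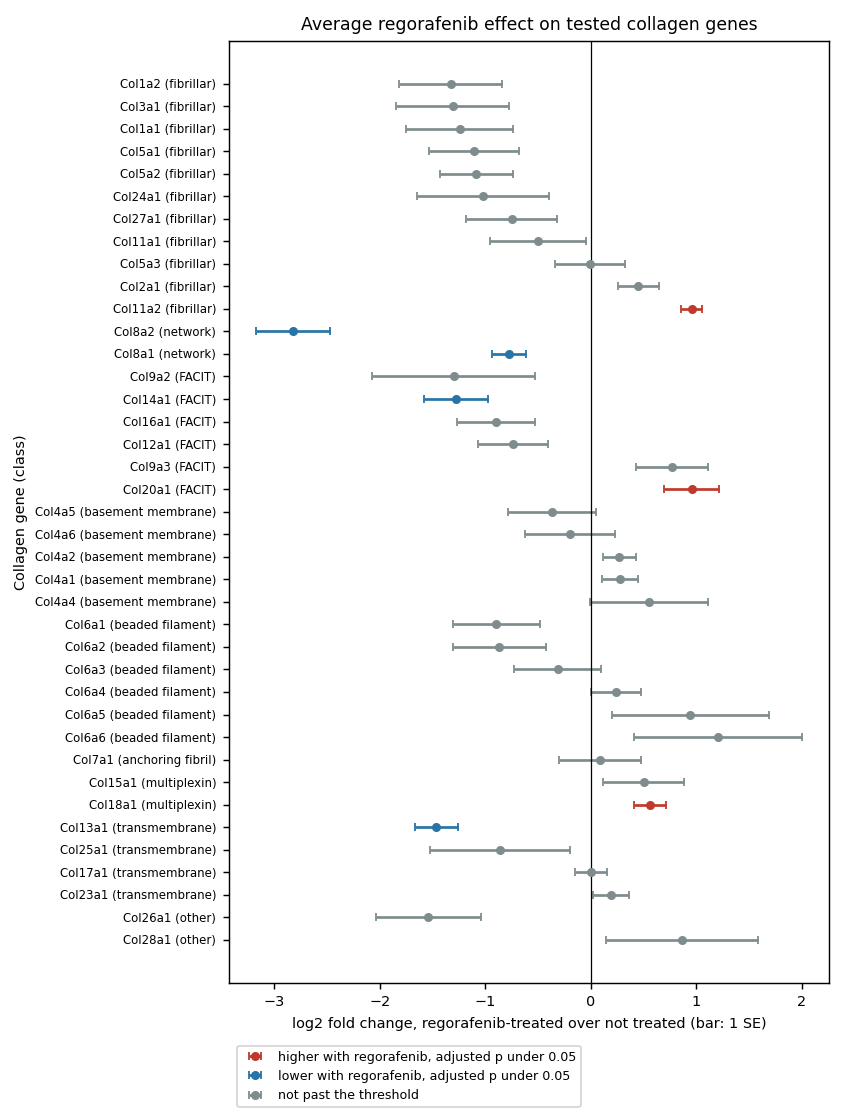
Average regorafenib effect on each tested collagen gene, as the log2 fold change with 1 SE, grouped by class down the page. Col8a2 has the lowest value (-2.82), and the fibrillar Col11a2 (0.96) lies on the other side of 0 from Col1a1 (-1.24), whose wide bar did not pass the test.

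The number of calls depends on single libraries. Leaving out regorafenib 2 raised it to 13 (against 10.2% of all genes tested in that fit), leaving out anti-PD1 1 raised it to 10 (against 11.8%), leaving out anti-PD1 2 or combination 2 lowered it to 3, and leaving out anti-PD1 3, combination 1 or any 1 vehicle library lowered it to 4. Col8a2, Col13a1 and Col11a2 passed in all 12 fits with 1 library left out. Col8a1 passed in 10, failing without anti-PD1 2 or combination 2. Col14a1 passed in 4, Col20a1 in 3 and Col18a1 in 2 of those 12 fits, with adjusted p-values of up to 0.0802, 0.123 and 0.110, so these 3 calls rest on nearly all libraries being present.

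The network collagens of type VIII were the class in which every tested member fell. Col8a2 (ENSMUSG00000056174) spans chr4:126286793-126314330 on the plus strand of GRCm38 and encodes the alpha 2 chain, known from the Descemet membrane of the cornea. It had 0.888, 1.06 and 0.517 CPM with regorafenib and 0.309, 0.975 and 0.398 CPM with the combination, against 2.08, 6.03 and 3.16 CPM with anti-PD1 and 5.83, 7.27 and 5.67 CPM with vehicle. All 6 regorafenib-treated libraries lay below all 6 others, with anti-PD1 1 the nearest of those. The average effect was -2.82 ± 0.35 (log2, SE), a level 7.08-fold lower with regorafenib (edgeR adjusted p = 0.00380). Col8a2 held only 7 to 197 counts per library, so the size of this fall rests on few reads in the treated libraries.

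Col8a1 (ENSMUSG00000068196, chr16:57624258-57754737, minus strand) encodes the alpha 1 chain, which vascular and other mesenchymal cells secrete. It was the more abundant of the pair, at 173, 248 and 139 CPM with regorafenib and 162, 134 and 189 CPM with the combination, against 195, 321 and 289 CPM with anti-PD1 and 321, 319 and 351 CPM with vehicle. The groups overlapped only in that regorafenib 2 lay above anti-PD1 1. On average it gave -0.78 ± 0.16, or 1.71-fold lower (adjusted p = 0.0194). The per-kilobase ratio of Col8a1 to Col8a2 was 78.7 to 300.4 in the 6 treated libraries and 25.1 to 53.8 in the other 6, so the pair did not move by the same factor. The highest ratios rest on few Col8a2 counts.

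Col13a1 and Col14a1 were the other genes that fell. Col13a1 (ENSMUSG00000058806, chr10:61838236-61979108, minus strand) encodes a transmembrane collagen of adhesion sites and the neuromuscular junction. It had 1.31, 1.85 and 1.33 CPM with regorafenib and 1.02, 0.800 and 1.67 CPM with the combination, against 2.72, 3.49 and 3.16 CPM with anti-PD1 and 4.03, 4.98 and 3.70 CPM with vehicle. All 6 treated libraries again lay below the other 6, and regorafenib 2 was the highest of the treated ones. The average effect was -1.46 ± 0.20, or 2.76-fold lower (adjusted p = 0.00496).

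Col14a1 (ENSMUSG00000022371, chr15:55307750-55520803, plus strand) is a FACIT that binds fibres of type I collagen. It had 21.4, 43.8 and 13.5 CPM with regorafenib and 14.2, 10.5 and 20.2 CPM with the combination, against 25.2, 54.1 and 42.9 CPM with anti-PD1 and 55.4, 44.0 and 69.9 CPM with vehicle. Only regorafenib 2 among the treated libraries reached the range of the others. On average Col14a1 gave -1.28 ± 0.30, or 2.42-fold lower (adjusted p = 0.0281).

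Col11a2 (ENSMUSG00000024330, chr17:34039437-34066685, plus strand) moved the other way from most fibrillar genes. It encodes the alpha 2 chain of type XI collagen, a minor fibrillar collagen best known from cartilage. It had 13.2, 15.2 and 15.6 CPM with regorafenib and 19.8, 22.0 and 16.3 CPM with the combination, against 9.89, 7.83 and 9.16 CPM with anti-PD1 and 8.93, 8.37 and 7.94 CPM with vehicle. All 6 treated libraries lay above the other 6, and the spread within each group was small. The average effect was 0.96 ± 0.10, or 1.94-fold higher (adjusted p = 0.00287). Of the other cartilage collagens, Col2a1 (0.45, adjusted p = 0.155), Col9a3 (0.77, 0.168), Col9a2 (-1.30, 0.301) and Col11a1, which pairs with Col11a2 in type XI (-0.50, 0.516), did not pass. Among 9 other cartilage markers only 3 had enough counts to be tested and none passed. Acan, the cartilage proteoglycan, reached at most 0.111 CPM in any library, Matn1 0.169 CPM and Hapln1 0.0440 CPM. Sox9, a factor of cartilage and of many epithelia, supplied nearly all of the summed level of the 9 markers, which was 163 to 331 CPM with regorafenib, 226 to 357 CPM with the combination, 138 to 294 CPM with anti-PD1 and 142 to 194 CPM with vehicle.

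Col20a1 (ENSMUSG00000016356, chr2:180986535-181018363, plus strand), a sparsely studied FACIT, had 4.69, 11.0 and 11.3 CPM with regorafenib and 23.4, 15.6 and 10.6 CPM with the combination, against 10.2, 5.68 and 6.32 CPM with anti-PD1 and 5.58, 5.35 and 5.09 CPM with vehicle. Regorafenib 1 was the lowest of all 12 libraries and anti-PD1 1 the highest of those without regorafenib, so the groups overlapped. Its average effect was 0.96 ± 0.26, or 1.94-fold higher (adjusted p = 0.0468). The gene shares 79 exonic bases on its own strand with the annotated BX649560.1, so part of its count may belong to that gene.

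Col18a1 (ENSMUSG00000001435, chr10:77052178-77166548, minus strand) encodes a multiplexin of basement membranes whose end fragment, endostatin, inhibits vessel growth. It had 242, 151 and 197 CPM with regorafenib and 201, 334 and 184 CPM with the combination, against 124, 126 and 129 CPM with anti-PD1 and 165, 177 and 171 CPM with vehicle. All 3 combination libraries lay above all 6 without regorafenib, whereas regorafenib 2 lay below the 3 vehicle libraries. Its average effect was 0.57 ± 0.15, or 1.48-fold higher (adjusted p = 0.0449). The 2 parts of this average were unequal, at 0.20 ± 0.22 for regorafenib against vehicle (edgeR adjusted p = 0.700) and 0.93 ± 0.22 for the combination against anti-PD1 (0.0572). A rise with regorafenib alone was thus not shown. The 3 anti-PD1 libraries lay below the 3 vehicle libraries, but anti-PD1 against vehicle was not called (-0.44 ± 0.22, edgeR adjusted p = 0.865). The other multiplexin, Col15a1, had a value of 0.50 ± 0.38 (adjusted p = 0.427), with 56.7 CPM in regorafenib 1 and 7.03 CPM in combination 1 as its extremes.

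**Figure D3:**
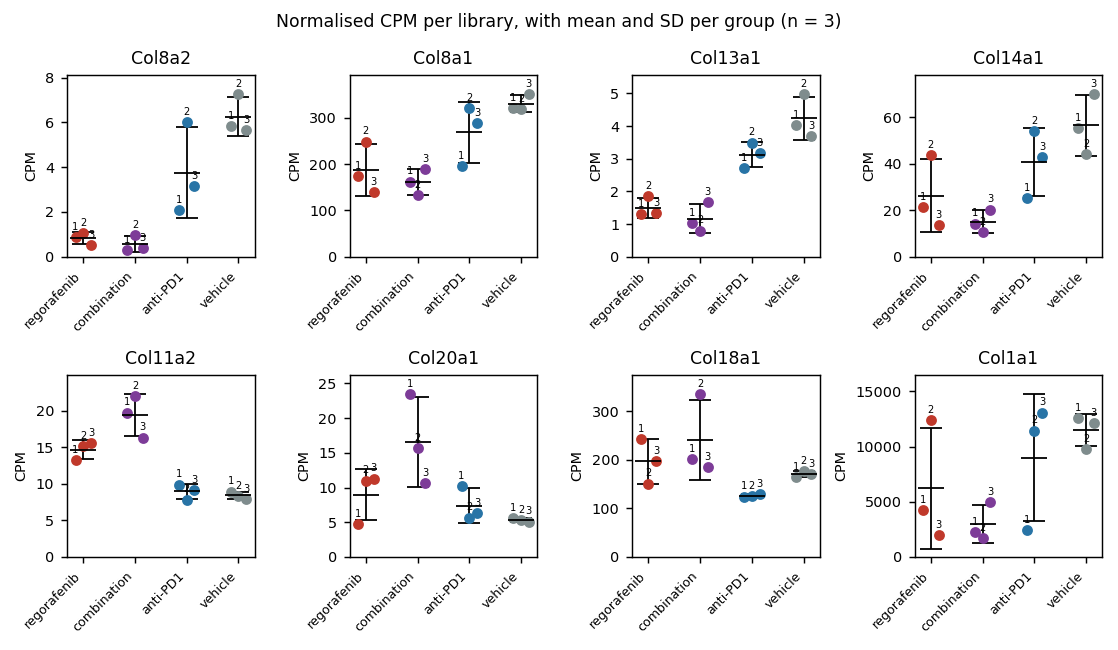
Normalised CPM of the 7 collagens that passed the test for the average regorafenib effect, and of Col1a1, which did not, in each of 12 libraries (points, with replicate numbers) with the group mean and SD (n = 3). Col8a2, Col13a1 and Col11a2 separate the 6 treated libraries from the other 6, whereas in Col1a1 regorafenib 2 (12386 CPM) and anti-PD1 1 (2411 CPM) cross over.

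The promoters of the 3 genes that separated libraries with regorafenib from those without are shown so that the sequences upstream of Col8a2 and Col13a1, which fell, and of Col11a2, which rose, can be read side by side. Each window runs from 250 bases before to 50 bases after the start site in RefSeq (GRCm38.p6), at chr4:126286544-126286843 on the plus strand for Col8a2, chr10:61979059-61979358 on the minus strand for Col13a1 and chr17:34038888-34039187 on the plus strand for Col11a2. Capitals mark the CCAAT box, the TATAAA box and the GC box GGGCGG on either strand, the GC box reading CCGCCC on the other, and overlapping matches of 1 motif run together.
Col8a2: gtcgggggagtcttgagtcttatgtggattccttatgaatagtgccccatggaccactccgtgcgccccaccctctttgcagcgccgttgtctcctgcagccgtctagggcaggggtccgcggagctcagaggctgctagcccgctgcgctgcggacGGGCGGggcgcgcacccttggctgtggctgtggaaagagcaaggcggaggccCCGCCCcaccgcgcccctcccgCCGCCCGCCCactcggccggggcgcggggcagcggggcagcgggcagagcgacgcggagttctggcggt
Col13a1: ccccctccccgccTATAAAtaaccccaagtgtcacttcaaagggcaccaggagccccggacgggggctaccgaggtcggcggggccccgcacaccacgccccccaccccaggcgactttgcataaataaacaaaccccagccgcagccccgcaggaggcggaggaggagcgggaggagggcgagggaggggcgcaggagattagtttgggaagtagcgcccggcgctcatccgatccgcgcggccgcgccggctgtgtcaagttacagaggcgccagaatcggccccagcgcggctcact
Col11a2: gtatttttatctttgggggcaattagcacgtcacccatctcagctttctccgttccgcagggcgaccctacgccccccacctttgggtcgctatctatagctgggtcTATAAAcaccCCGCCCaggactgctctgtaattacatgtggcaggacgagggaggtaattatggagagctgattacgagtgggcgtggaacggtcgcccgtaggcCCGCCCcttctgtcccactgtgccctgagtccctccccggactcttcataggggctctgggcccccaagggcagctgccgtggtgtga
Col8a2 held 4 matches to GGGCGG and neither of the other motifs, Col13a1 held 1 TATAAA, and Col11a2 held 1 TATAAA and 2 GGGCGG. RefSeq windows were found for 35 of the 44 collagen genes, in 38 windows. GGGCGG stood in 60.5% of these collagen windows and in 35.7% of all 32851 windows, CCAAT in 34.2% and 37.4%, and TATAAA in 13.2% and 13.6%. The RefSeq start of Col11a2 lies 299 bases from the gene start used for the coordinates above. No motif was shared by all 3 windows.

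The abundant fibrillar collagens had lower means with regorafenib but did not pass the test, and the libraries of the regorafenib and anti-PD1 groups were split. Col1a1 (ENSMUSG00000001506, chr11:94936224-94953042, plus strand) had 4256, 12386 and 2003 CPM with regorafenib and 2278, 1689.6 and 4966 CPM with the combination, against 2411, 11459 and 13089.6 CPM with anti-PD1 and 12587, 9810.0 and 12106 CPM with vehicle. The combination libraries were all low and the vehicle libraries all high, while regorafenib 2 and anti-PD1 1 each stood with the opposite side. For Col1a1 the average effect was -1.24 ± 0.51 (adjusted p = 0.140).

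Col1a2, the alpha 2 chain of type I, had the same 6 lowest libraries as Col1a1, with 3147, 8408 and 1498 CPM with regorafenib, 1601, 1223 and 3551 CPM with the combination, 1889, 8910.2 and 9487 CPM with anti-PD1 and 9352, 7327 and 9181 CPM with vehicle. Col3a1, the type III chain of extensible tissues, had 2630.0, 7325 and 1257 CPM with regorafenib and 1179, 1055 and 3169 CPM with the combination, against 1259.5, 7801 and 8037 CPM with anti-PD1 and 8653, 5379.7 and 7730.2 CPM with vehicle. In both genes regorafenib 2 again lay in the vehicle range and anti-PD1 1 in the combination range. Their average effects were -1.33 ± 0.49 and -1.31 ± 0.54 (adjusted p = 0.108 and 0.140).

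The type V chains, which limit the width of type I fibres, were split alike. Col5a1 had 398, 978 and 205 CPM with regorafenib and 241, 186 and 461 CPM with the combination, against 273, 913 and 1130.3 CPM with anti-PD1 and 947, 822 and 1047 CPM with vehicle. Col5a2 had 455, 895 and 302 CPM with regorafenib and 386, 221 and 530.0 CPM with the combination, against 362, 1107 and 1132 CPM with anti-PD1 and 1170.1, 942 and 1146 CPM with vehicle. Regorafenib 2 was the only treated library near the vehicle range in both, and anti-PD1 1 the only library without regorafenib far below it. Their average effects were -1.11 ± 0.43 and -1.09 ± 0.35 (adjusted p = 0.122 and 0.0720). Col5a3, a type V chain of muscle and adipose tissue, had 109, 171 and 48.9 CPM with regorafenib and 71.0, 66.7 and 103 CPM with the combination, against 45.8, 75.4 and 155 CPM with anti-PD1 and 86.8, 85.9 and 117 CPM with vehicle. Its groups overlapped, and it gave -0.01 ± 0.33 (adjusted p = 0.995). Lower in abundance, Col24a1 gave -1.02 ± 0.63 and Col27a1 -0.75 ± 0.43 (adjusted p = 0.319 and 0.288). In all, 9 of 11 fibrillar genes had a negative value, against 8404 of 16974 tested genes. The average effect of anti-PD1, with 0 calls, was also negative in 9 of 11 (median -0.60), against 8028 of 16974. A negative sign was thus not particular to regorafenib. The same 6 libraries were lowest in 7 of 11 fibrillar genes, so these genes are not independent counts. For regorafenib an unadjusted p under 0.05 was found in 7 of 11, against 4745 of 16974. Among these Col11a2 and Col2a1 had positive values. The 1 that passed was Col11a2, which rose.

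The split of libraries ran through much of the family. The 6 libraries lowest in Col1a1, namely regorafenib 1 and 3, the 3 combination libraries and anti-PD1 1, were also the 6 lowest for 13 of 39 tested collagens, Col1a1 included (33.3%, against 4.8% of all tested genes). These were 7 of 11 fibrillar, 3 of 6 FACIT, 2 of 6 beaded filament, 1 of 2 network and 0 of 5 basement membrane genes. Anti-PD1 1 was the lowest of the 6 libraries without regorafenib in 25 of 39 collagens (64.1%, against 27.5% of all tested genes). Regorafenib 2 was the highest of the 6 treated libraries in 20 of 39 (51.3%, against 21.0%). By contrast all 6 treated libraries lay below the other 6 in 2 of 39 collagens (5.13%, against 1.77%) and above them in 1 (2.56%, against 2.87%).

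Fitting the table without anti-PD1 1 and regorafenib 2 gave 19 called collagens of 39, 15 lower and 4 higher, against 13.9% of the 17296 genes tested in that fit. The fibrillar genes Col1a1 (-1.96, adjusted p = 0.00882), Col1a2 (-2.00, 0.00790), Col3a1 (-2.02, 0.0107), Col5a1 (-1.71, 0.00775), Col5a2 (-1.54, 0.00594), Col24a1 (-2.10, 0.0111) and Col27a1 (-1.44, 0.00532) were then lower. So were the beaded filament genes Col6a1 (-1.45, 0.0122) and Col6a2 (-1.46, 0.0190) and the FACIT genes Col12a1 (-1.21, 0.0146) and Col16a1 (-1.52, 0.00254), and the FACIT Col9a3 was higher (1.17, 0.0370). The class medians in this fit were -2.04 for network, -1.54 for fibrillar, -1.37 for FACIT, -0.80 for transmembrane, -0.32 for beaded filament, 0.36 for basement membrane and 0.60 for multiplexin genes, against 0.01 for all tested genes. That fit was chosen after the collagen levels were seen, and removing the 2 libraries that oppose a direction strengthens it by construction, so it describes the other 10 libraries and tests nothing. Without them the 7 collagens called over all 12 libraries kept their calls, at -3.08 for Col8a2, -1.60 for Col13a1, -0.9999 for Col8a1, -1.70 for Col14a1, 0.98 for Col11a2, 1.02 for Col20a1 and 0.64 for Col18a1.

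**Figure D4:**
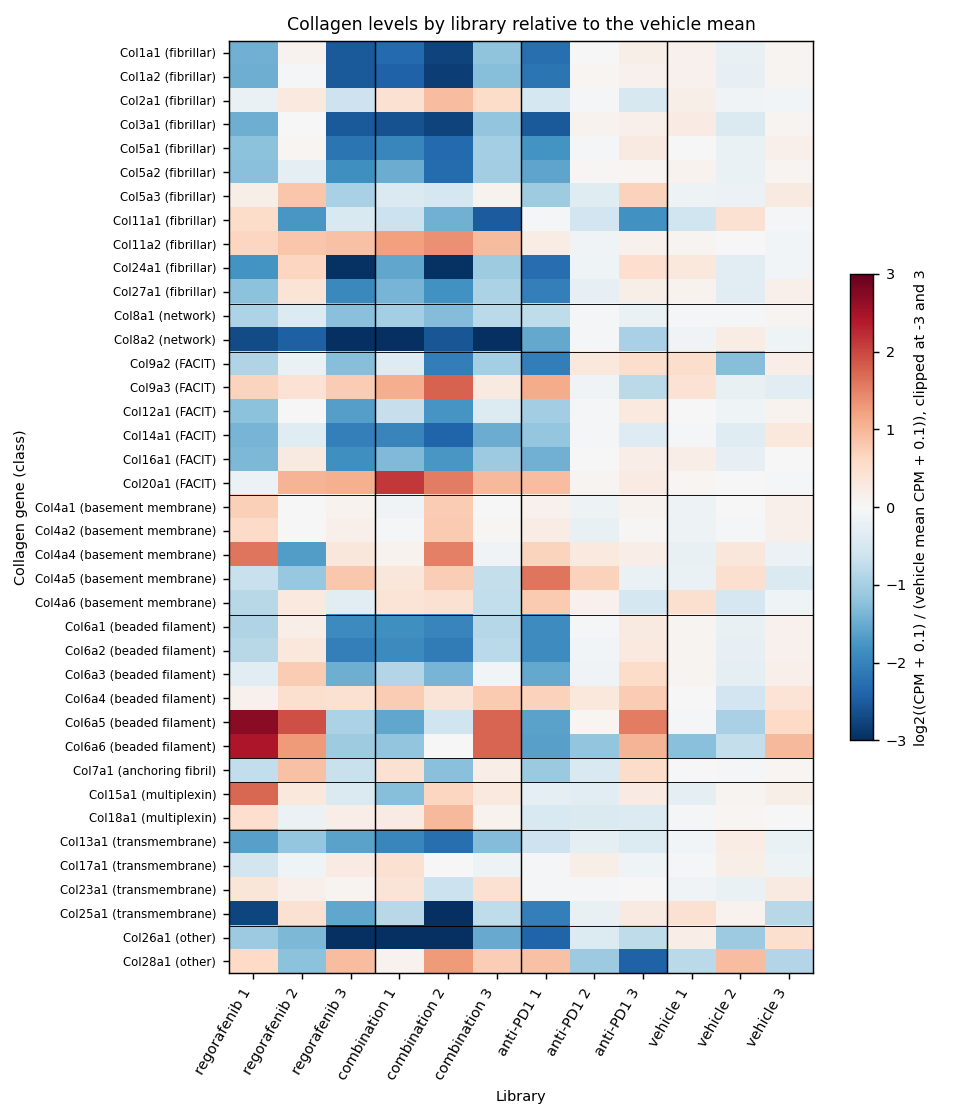
Level of the 39 tested collagens in each library, as log2 of (CPM + 0.1) over (mean vehicle CPM + 0.1), clipped at -3 and 3, with classes separated by lines. Regorafenib 1 and 3, the combination libraries and anti-PD1 1 are blue across the abundant fibrillar, beaded filament and FACIT chains, whereas Col8a2 and Col13a1 are blue and Col11a2 red in all 6 regorafenib-treated libraries.

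Fibroblast markers, as a sum, split the libraries as the abundant fibrillar chains did. The summed level of 18 fibroblast markers was 2627, 3740.3 and 2030.0 CPM with regorafenib and 2102, 2089 and 2536 CPM with the combination, against 2002, 3812 and 3762 CPM with anti-PD1 and 3782, 3604 and 3619.7 CPM with vehicle. Regorafenib 2 and anti-PD1 1 thus crossed over in this sum as they did in Col1a1. Its largest parts were the matrix genes Postn, Fbln2 and Fn1, with 1365, 751 and 409 CPM in regorafenib 2. Not every marker followed the split, since Pdpn had 51.4 CPM in regorafenib 2 and 60.3 CPM in anti-PD1 1, and Fbln1 had an average effect of 0.04 ± 0.12. Of 17 fibroblast markers tested 16 had a negative average effect, against 8404 of 16974 tested genes. The proteoglycan gene Lum was the 1 that fell (-2.20 ± 0.48, edgeR adjusted p = 0.0223), against 3.32% of all tested genes. The fibroblast factor gene Tcf21 was at 0 in every library. In bulk tumour RNA, fewer fibroblasts and less collagen RNA per fibroblast cannot be told apart.

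The sum of 4 Y-linked genes, which the male host's cells carry, ranged from 18.1 to 41.7 CPM with regorafenib, 18.3 to 34.6 CPM with the combination, 21.3 to 42.3 CPM with anti-PD1 and 25.6 to 33.6 CPM with vehicle. It was highest in regorafenib 2 among libraries with regorafenib and lowest in anti-PD1 1 among those without. With that level as a covariate 17 of 39 collagens passed, 13 lower and 4 higher, against 19.8% of all tested genes in that fit, itself above the 9.49% without the covariate. Col1a1 then gave -1.02 (adjusted p = 0.0248), Col8a2 -2.77 (0.00244), Col13a1 -1.41 (0.00237) and Col11a2 0.93 (0.00133). Among its calls were also Col4a5, lower (-0.73, 0.0116), and Col6a5, higher (1.28, 0.0340). The covariate was measured in the treated tumours and sets regorafenib 2 and anti-PD1 1 apart as the collagens do, so the calls of this fit are not independent support.

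Endothelial marker sums overlapped between the groups. The 14 endothelial markers summed to 126 to 172 CPM with regorafenib, 93.8 to 172 CPM with the combination, 154 to 201 CPM with anti-PD1 and 158 to 183 CPM with vehicle, and 3 of 14 fell. Pericyte and smooth muscle sums did not split as Col1a1 did, with 418 CPM in regorafenib 2 and 425 CPM in anti-PD1 1 against 455 to 541 CPM with vehicle. Of 9 pericyte and smooth muscle markers 2 fell, of 10 keratinocyte markers 1 fell, of 9 leukocyte markers 1 rose, and of 10 skeletal muscle markers none passed although their sum ran from 19.5 CPM in regorafenib 1 to 542 CPM in combination 3. Over all tested genes 3.32% fell and 6.16% rose. The part of these cell types in the collagen values was not tested.

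**Figure D5:**
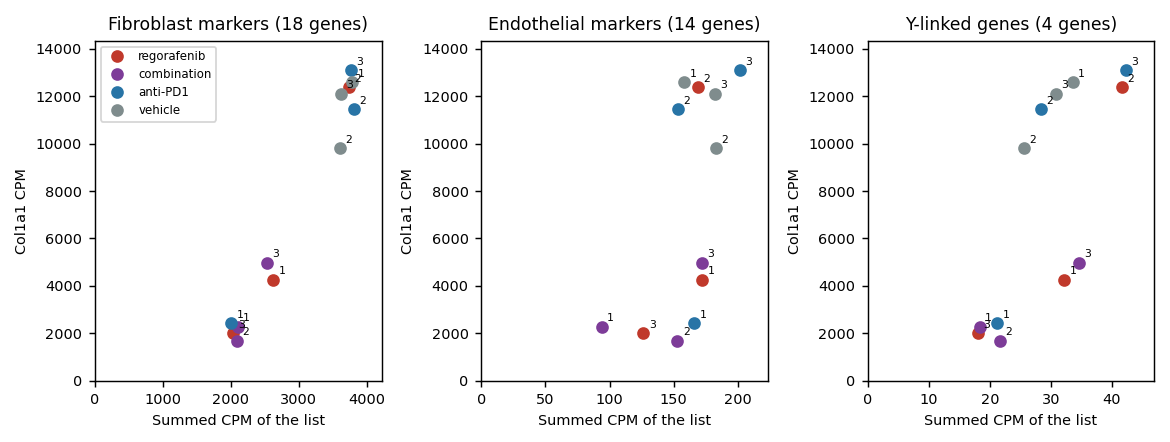
Col1a1 CPM in each of 12 libraries against the summed CPM of 18 fibroblast markers, 14 endothelial markers and 4 Y-linked genes, coloured by group and labelled with replicate numbers. The 6 libraries lowest in Col1a1 (at most 4966 CPM) have fibroblast sums of at most 2627 CPM and the other 6 of at least 3604 CPM, while endothelial sums overlap between those sets.

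Among the FACIT genes the abundant chains Col12a1 and Col16a1 had negative values, nearer 0 than those of type I, and neither passed. Col12a1, which links fibres in tendon and skin, had 485, 1153 and 364 CPM with regorafenib and 709, 335 and 860.0 CPM with the combination, against 558, 1121 and 1409 CPM with anti-PD1 and 1149, 1044 and 1239 CPM with vehicle. Regorafenib 2 and anti-PD1 1 again crossed over, and the average effect was -0.74 ± 0.33 (adjusted p = 0.180). Col16a1, found near dermal basement membranes, had 148, 449.8 and 105 CPM with regorafenib and 151, 112 and 175 CPM with the combination, against 137, 374 and 435 CPM with anti-PD1 and 431, 318 and 378 CPM with vehicle. Regorafenib 2 was the highest of all 12 libraries, and the average effect was -0.90 ± 0.37 (adjusted p = 0.145). Col9a2 was near the limit of detection, with 0 to 0.503 CPM across the 12 libraries.

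The major basement membrane chains spanned a narrower range, 1.90-fold for Col4a1. Col4a1 had 335, 207 and 220.0 CPM with regorafenib and 191, 349 and 205 CPM with the combination, against 223, 183 and 222 CPM with anti-PD1 and 183, 205 and 226 CPM with vehicle. Only regorafenib 1 and combination 2 lay outside the range of the other 10 libraries. The average effect was 0.28 ± 0.17 for Col4a1 and 0.27 ± 0.16 for Col4a2, its partner in the common type IV helix (adjusted p = 0.317 and 0.288). Col4a2 had 195, 133 and 147 CPM with regorafenib and 127, 225 and 135 CPM with the combination, against 154, 114 and 135 CPM with anti-PD1 and 119, 129 and 147 CPM with vehicle, so regorafenib 1 and combination 2 were again the highest. The minor chains Col4a5 (2.95 to 20.4 CPM), Col4a4 (0.0440 to 1.31 CPM) and Col4a6 (0.127 to 0.594 CPM) did not pass.

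Col4a1 and Col4a2 are a head-to-head pair whose annotated genes overlap by 22 bases on opposite strands, and their windows are shown with that of Col1a2, a chain on another chromosome from its partner Col1a1. The windows lie at chr8:11312777-11313076 on the minus strand for Col4a1 and at chr8:11312555-11312854 on the plus strand for Col4a2, and they share 78 bases read in opposite directions. The window of Col1a2 lies at chr6:4505368-4505667 on the plus strand, 804 bases from the gene start of the other annotation. Capitals mark the same motifs, CCAAT reading ATTGG on the other strand.
Col4a1: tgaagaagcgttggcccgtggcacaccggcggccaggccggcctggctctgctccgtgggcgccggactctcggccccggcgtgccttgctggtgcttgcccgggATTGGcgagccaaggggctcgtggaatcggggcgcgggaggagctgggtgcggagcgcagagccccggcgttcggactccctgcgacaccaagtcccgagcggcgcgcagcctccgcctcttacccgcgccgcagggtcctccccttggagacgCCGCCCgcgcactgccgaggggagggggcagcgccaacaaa
Col4a2: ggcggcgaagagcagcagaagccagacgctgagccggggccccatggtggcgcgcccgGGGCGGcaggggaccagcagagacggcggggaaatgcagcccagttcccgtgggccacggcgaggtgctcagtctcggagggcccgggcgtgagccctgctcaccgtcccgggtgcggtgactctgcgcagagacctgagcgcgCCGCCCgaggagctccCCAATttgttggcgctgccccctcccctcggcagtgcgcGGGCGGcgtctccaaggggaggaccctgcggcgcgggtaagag
Col1a2: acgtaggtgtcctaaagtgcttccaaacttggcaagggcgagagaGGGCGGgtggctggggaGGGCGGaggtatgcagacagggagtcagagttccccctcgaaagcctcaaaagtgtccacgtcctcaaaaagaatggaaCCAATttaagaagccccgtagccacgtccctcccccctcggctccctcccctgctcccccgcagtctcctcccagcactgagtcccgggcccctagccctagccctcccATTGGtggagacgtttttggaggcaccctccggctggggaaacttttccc
The Col4a1 window held 1 CCAAT and 1 GGGCGG, that of Col4a2 held 1 and 3, and that of Col1a2 held 2 and 2. TATAAA was in none of the 3 windows.

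Some chains that assemble together kept a narrow ratio across libraries and others did not. Per kilobase, Col1a1 over Col1a2 ranged from 2.42 to 2.79, a 1.15-fold span, while each gene's level spanned 7.75-fold and 7.76-fold. Col4a1 over Col4a2 spanned 1.18-fold (1.29 to 1.52), Col6a1 over Col6a2 spanned 1.19-fold (1.96 to 2.33) and Col1a1 over Col3a1, chains of different collagens, spanned 1.33-fold (2.18 to 2.89). Col5a1 over Col5a2 spanned 1.75-fold, from 0.705 in combination 1 to 1.23 in regorafenib 2. Col6a3 over Col6a1 was 0.317 to 0.453 in the 6 treated libraries and 0.224 to 0.303 in the other 6, so these sets did not overlap. Col17a1, which epithelial cells make, kept a 2.01-fold span of its own, and its ratio to Col1a1 ran from 0.126 in anti-PD1 3 to 1.10 in combination 1.

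No beaded filament gene passed the test over all 12 libraries. Col6a1 had 599, 1279 and 298 CPM with regorafenib and 313, 283 and 619 CPM with the combination, against 301, 1074 and 1345 CPM with anti-PD1 and 1182, 957 and 1216 CPM with vehicle. Col6a2 had 561, 1240.2 and 243 CPM with regorafenib and 268, 235 and 574 CPM with the combination, against 269.7, 942 and 1229.7 CPM with anti-PD1 and 1065, 846 and 1088 CPM with vehicle. Both chains had the same 6 lowest libraries as Col1a1, and their average effects were -0.89 ± 0.41 and -0.87 ± 0.44 (adjusted p = 0.188 and 0.227). Both were called lower in the fit without anti-PD1 1 and regorafenib 2, which as stated above tests nothing. They were also called lower with the Y-linked covariate (edgeR adjusted p = 0.0368 and 0.0379), a level that sets the same 2 libraries apart. Neither fit is independent support for a fall in these chains. Col6a3, the large alpha 3 chain, gave -0.31 ± 0.42 (adjusted p = 0.670), with 568, 1208 and 257 CPM with regorafenib and 387, 272 and 680.3 CPM with the combination, against 248, 661 and 1052 CPM with anti-PD1 and 759, 585 and 801 CPM with vehicle. Its groups overlapped widely. Col6a5 and Col6a6, alternative chains with restricted expression, were low and uneven. Col6a5 had 27.99, 16.4 and 2.14 CPM with regorafenib and 1.37, 2.78 and 14.3 CPM with the combination, against 1.32, 4.41 and 12.5 CPM with anti-PD1 and 4.11, 2.10 and 6.48 CPM with vehicle, so the groups overlapped (0.95 ± 0.74, adjusted p = 0.444). Col6a6 ranged from 0.170 to 4.36 CPM over the 12 libraries (1.21 ± 0.80, adjusted p = 0.355). Col6a4, another alternative chain, stood between 0.221 and 0.724 CPM (0.24 ± 0.24, adjusted p = 0.556).

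None of the remaining transmembrane, anchoring fibril and unclassed genes passed. Col17a1 and Col7a1 had values near 0, that of Col7a1 with a wide SE. Col17a1 had 1139.9, 1510.5 and 1962 CPM with regorafenib and 2291, 1645 and 1502 CPM with the combination, against 1635, 1870.1 and 1516 CPM with anti-PD1 and 1622, 1869 and 1496 CPM with vehicle. The groups overlapped fully and the average effect was 0.00 ± 0.15 (adjusted p = 0.997). Col7a1, the anchoring fibril chain at the junction of epithelium and dermis, had 214, 661 and 225 CPM with regorafenib and 495, 151 and 411 CPM with the combination, against 167, 263 and 522 CPM with anti-PD1 and 354, 349.6 and 374 CPM with vehicle. The vehicle libraries lay close together in the middle of the others, and the average effect was 0.09 ± 0.39 (adjusted p = 0.907). Col23a1, another transmembrane collagen, averaged 27.1 ± 2.83 CPM with regorafenib, 26.1 ± 9.69 CPM with the combination, 23.1 ± 0.678 CPM with anti-PD1 and 23.6 ± 4.20 CPM with vehicle (SD, n = 3 each; 0.19 ± 0.17, adjusted p = 0.515). Col25a1, a transmembrane collagen of neurons and developing muscle, was at 0.104 to 2.42 CPM and gave -0.86 ± 0.66. Col26a1, which falls in no class, had the second lowest value of the family (-1.54 ± 0.50) but did not pass (adjusted p = 0.0754), with 11.5, 9.67 and 2.51 CPM with regorafenib and 2.74, 2.58 and 8.62 CPM with the combination, against 4.62, 18.5 and 14.6 CPM with anti-PD1 and 28.3, 11.5 and 34.3 CPM with vehicle. Col28a1, also outside the classes, reached at most 1.22 CPM and gave 0.86 ± 0.72 (adjusted p = 0.475).

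The groups were then compared singly. The combination against vehicle gave 6 of 39 collagens (15.4%, against 7.34% of all tested genes). The 4 lower genes (against 2.32% of all tested genes) were Col8a2 (-3.45 ± 0.50, adjusted p = 0.0122), Col13a1 (-1.86 ± 0.29, 0.0122), Col8a1 (-1.03 ± 0.23, 0.0318) and Col14a1 (-1.91 ± 0.43, 0.0327). The 2 higher genes (against 5.03%) were Col11a2 (1.20 ± 0.14, 0.0101) and Col20a1 (1.63 ± 0.38, 0.0333), a share too near to be a result about collagens. The count of 6 calls was 0 without any 1 of the 3 vehicle libraries, 1 without combination 1 and 2 without combination 2. It was 16 in a fit of only the 6 libraries compared, for which no share of all tested genes is given here. The combination against anti-PD1 gave 3 of 39 (7.69%, against 1.92% of all tested genes, 0.224% lower and 1.7% higher), with Col8a2 (-2.71 ± 0.49, adjusted p = 0.0274) and Col13a1 (-1.42 ± 0.28, 0.0346) lower and Col11a2 higher (1.11 ± 0.14, 0.00878). That count was 1 without any 1 vehicle library and 0 without anti-PD1 2, anti-PD1 3, combination 1 or combination 2, or in a fit of only the 6 libraries compared.

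Regorafenib alone against vehicle gave 0 of 39 by edgeR (against 0.00589% of all tested genes) and 4 by DESeq2. An unadjusted edgeR p under 0.05 was found in 6 of 39, against 2398 of all 16974 tested genes, a share too near to be a result about collagens. The edgeR values of this comparison for the genes named above were -2.93 ± 0.49 for Col8a2 (adjusted p = 0.0932), -1.50 ± 0.28 for Col13a1 (0.117), -0.82 ± 0.23 for Col8a1 (0.197) and 0.80 ± 0.14 for Col11a2 (0.104). These comparisons share libraries with those above, so their values stand side by side and are not independent. The interaction, which asks whether regorafenib acted differently with and without anti-PD1, was called for 0 of 39 collagens (against 0.0% of all tested genes) and for 0 by DESeq2. An unadjusted p under 0.05 was found in 2 of 39, against 449 of 16974 tested genes, so a difference between the 2 settings was not shown.

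Anti-PD1 gave no called collagen. Against vehicle 0 of 39 passed (against 0.0% of all tested genes), with 0 at an unadjusted p under 0.05 (against 878 of 16974 tested genes) and 0 by DESeq2, and the values were -0.73 ± 0.44 for Col8a2, -0.36 ± 0.71 for Col1a1 and 0.09 ± 0.14 for Col11a2. The anti-PD1 average effect gave 0 of 39 (against 0.0%), with 3 at an unadjusted p under 0.05 (against 1485 of 16974) and 0 by DESeq2, and a median log2 fold change of -0.37 over the 39 collagens, against 0.01 over all tested genes. The combination against regorafenib also gave 0 (against 0.0%), with 3 at an unadjusted p under 0.05 (against 925 of 16974) and 0 by DESeq2.

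Genes that fold, export and crosslink collagen gave lower values in most cases. Of 31 tested genes of this group 27 had a negative average effect (against 8404 of 16974 tested genes), with a median of -0.39, and 4 fell while none rose (against 3.32% of all tested genes lower). Sec23a, a coat protein of vesicles that export procollagen, fell by 0.39 ± 0.06 on the log2 scale (adjusted p = 0.00699). It had 40.5, 38.1 and 37.9 CPM with regorafenib and 36.1, 29.8 and 34.2 CPM with the combination, against 41.8, 45.1 and 44.5 CPM with anti-PD1 and 52.6, 47.3 and 51.6 CPM with vehicle, and the treated libraries all lay below the others. Lox, which crosslinks collagen, fell by 0.77 ± 0.21 (adjusted p = 0.0438), its relative Loxl2 fell by 1.497 ± 0.42 (0.0496) and P4ha3, a prolyl hydroxylase subunit, fell by 1.40 ± 0.39 (0.0480). Sec23a passed in all 12 fits with 1 library left out, Lox in 3, and Loxl2 and P4ha3 in 2 each. Of 9 tested collagen receptors 1 rose (against 6.16% of all tested genes, a share too near to be a result about receptors), Itga10, an integrin subunit known from cartilage (0.73 ± 0.20, adjusted p = 0.0449, kept in 3 of 12 such fits), and the median was -0.30. Itga10 and Lum were singled out after their values were seen.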

How the data were processed

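Tumour RNA was sequenced as 12 libraries (4 groups of 3) of stranded polyadenylated RNA. Groups were taken from the sample labels. The authors deposited unnormalised counts of reads for each Ensembl identifier, 22591835 to 28209036 per library. Per the submitters' processing notes, cutadapt 2.4, STAR 2.7.2a and GRCm38 were used. Neither the counter, whether it used strand, nor the gene models' release is given in the sources used here, so reads of overlapping genes may be misassigned. Symbols came from GENCODE M21.

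Counts were filtered (filterByExpr, minimum count 10, total 15), scaled by TMM and fitted with edgeR 4.0.16 (robust quasi-likelihood, R 4.3.3) as 1 model of 4 group means with 8 residual degrees of freedom and a common coefficient of variation of 0.227. P-values were adjusted over 16974 genes. SEs are the log2 fold change over the square root of F. On simulated data for the average regorafenib effect (16706 genes), 38% of genes changed 1.5-fold, 66% of 2-fold, 90% of 3-fold and 86% of 5-fold changes were recovered, with 10 false calls. The simulation drew each gene independently and held no shift shared by many genes of a library. The split of libraries described above was thus absent from it, and its recovery and false calls may not hold for the collagens. Alternatives were another scaling, DESeq2 1.42.0, no filter, a replicate block, a Y-linked covariate, an additive model, only the libraries compared, and each library left out. The text names every collagen, the called ones in full, and called genes of the processing and receptor lists. The members, classes and lists were chosen with earlier results of these data known.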

Additional observations from a re-analysis of the deposited data

How the results depend on the processing

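Counts of called collagens depended on the processing. For the average regorafenib effect (7), DESeq2 gave 11, no filter on low counts 4, a replicate block 4, a Y-linked covariate 17, and leaving out anti-PD1 1 and regorafenib 2 together 19. Leaving out each library in turn gave 3 to 13. For the combination against vehicle (6), DESeq2 gave 13, the replicate block 1, the covariate 15, only the 6 libraries compared 16, and the fit without both libraries 15, with 0 to 7 for single libraries. For the combination against anti-PD1 (3), these were 8, 0, 5, 0 and 13, with 0 to 4. For regorafenib against vehicle (0), DESeq2 gave 4, the covariate 4 and the fit without both libraries 3. The cause was not tested in any case. For the comparisons of single groups no count over all tested genes stands beside the alternative counts, so they are not read as results about collagens. Over all tested genes the average effect called 1610, against 2808 by DESeq2, 959 without the filter, 504 with the block, 3358 with the covariate, 2404 without both libraries and 460 to 2048 without single libraries. Same-numbered libraries of different groups did not deviate together (2 of 18 pairs correlated over 0.1, range -0.657 to 0.630), so the numbers are not taken as pairs.

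Some values not past the threshold changed sign. Col5a3 (-0.01) was 0.058 with the replicate block and 0.22 with the covariate, and -0.24 to 0.30 without single libraries. Col7a1 (0.09) was -0.44 without both libraries and -0.28 to 0.37 without single ones. Col17a1 (0.00) was -0.00825 without the filter, -0.080 with the covariate, -0.0020 without both libraries and -0.11 to 0.088 without single ones. Col4a5 (-0.37) was 0.087 without both libraries. Without single libraries Col4a4 (0.56) ran from -0.024 to 0.83 and Col4a6 (-0.19) from -0.43 to 0.057. Of all alternative values of named genes, 804 kept their direction and their side of the threshold, 141 lost a call, 38 gained one and 24 changed sign. The 804 include values of genes that were not called and stayed so, and only called genes could lose a call. These counts thus do not measure how stable the calls were. Low-count genes such as Col4a6 and Col9a2 are limited by depth.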
